A study of Danio rerio with 7 samples.

Results

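The genes described here are the zinc finger genes of the zebrafish whose name is znf followed by a number only, in the dissected hindbrain of embryos with and without functional Fgf20a. They were taken by name, with case ignored, from the gene names paired with the IDs of the count table, and were kept where every library of at least 1 group held at least 30 counts. Of 32189 gene IDs, 244 carried such a name and 218 reached this limit. Gene expression had been measured by bulk RNA-seq in 7 libraries, each from the hindbrain of a single embryo at 24 hpf (hours post fertilisation).

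Most genes of this name encode proteins with C2H2 zinc fingers, short loops in which a pair of cysteines and a pair of histidines hold a zinc ion. Fingers usually stand in tandem, and in many of these proteins each finger reads a few bases of DNA, so that a row of fingers recognises a longer site and recruits activators or repressors to it. Some bind RNA or other proteins instead. Vertebrates carry a core of such genes with recognisable counterparts across species, and beside it large families of recently duplicated copies that often lie in arrays and differ between species and between strains. In the hindbrain, zinc finger factors are known from the control of segment identity (egr2b), of dorsal patterning (the zic genes) and of segmentation (znf703 and znf503).

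The 4 Cnt libraries came from wild-type (wt) embryos of the strain LondonAB. The 3 Fgf20aHOM libraries came from embryos that were homozygous for the dob mutation of fgf20a, which encodes a fibroblast growth factor secreted by neurons at segment centres, and the label gives their strain as Fgf20a HOM. All embryos were raised at 28.5°C and had been dechorionated and freed of yolk before dissection. The mutant embryos descended from crosses between homozygous parents, and no wild-type littermates were among the samples. The mutant genotype and the genetic background of the mutant line therefore cannot be told apart in any comparison given here. The mutant columns of the table were numbered F2, F3 and F4 and are called so, since these numbers do not match those of the sample titles. The study made this comparison to find genes controlled by Fgf20. By itself the comparison shows which genes differ between these groups of embryos.

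The libraries held 52900433 to 69801072 counts, and the 3 Fgf20aHOM libraries were the smallest. The table names 2 IDs FGF20 and does not tell fgf20a from fgf20b. Neither passed the limits of a call in edgeR's quasi-likelihood test, with normalised counts of 131 to 390.2 in Cnt and 181.5 to 270.1 in Fgf20aHOM (adjusted p = 0.893) and of 207 to 909 and 269 to 546 (adjusted p = 0.805), so the level of the targeted gene does not check the labels. Normalised counts are counts scaled by the TMM library size, and they grow with the length of a transcript, so that they compare libraries and not genes. The tissue label was checked with 10 lists of marker genes. All 16 hindbrain and neural entries were detected, and their summed level was 3110 to 4240 CPM (counts scaled to a fixed library size) in Cnt and 4090 to 4510 in Fgf20aHOM. Tissue beside the hindbrain was present in both groups. Epidermis genes summed to 926 to 15100 CPM in Cnt and 2230 to 6840 in Fgf20aHOM, neural crest genes to 74.7 to 198 and 175 to 211, whereas muscle genes reached at most 16.1 CPM and blood genes 5.78 CPM. The sums were 212 to 592 and 482 to 624 for head mesenchyme and 138 to 348 and 116 to 193 for otic vesicle. They were 36.2 to 155 and 88.4 to 134 for vasculature and 60.0 to 147 and 45.1 to 109 for notochord. Hatching gland and yolk genes summed to 0.537 to 208 and 0.723 to 8.21, with Cnt 4 far above all other libraries. None of the marker IDs tested passed the limits used for a changed gene. All mutant libraries lay above all Cnt libraries in 4 of 18 hindbrain and neural IDs tested and in 2 of 5 of neural crest. They lay below in 2 of 4 of notochord and in 1 of 6 of otic vesicle, and the other lists had no such ID. Over all tested genes the groups did not overlap in 17.5%. In bulk tissue, fewer cells of a type and less RNA per cell cannot be told apart.

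Numbered zinc finger genes were called changed in both directions. Of the 218, 16 were called changed (7.34%), 9 higher and 7 lower in Fgf20aHOM, where the call was made for 0.439% of the 19589 genes tested, 0.230% higher and 0.209% lower. A call required an adjusted p of at most 0.01 in edgeR's quasi-likelihood test together with a change of 2-fold or more, up or down, and with every library of 1 group or of both above a normalised count of 30. These limits were taken from the study. In all 16 the 3 Fgf20aHOM libraries lay on the same side of the 4 Cnt libraries. A call by these limits favours such genes, so this is no added support. Over all tested genes the groups did not overlap in 17.5%. The count limit lets in a gene that is high in a single group, and such a gene had to differ. This concerned 18 genes, 7 that reached 30 counts in Cnt only and 11 in Fgf20aHOM only. Of the other 200, which reached it in both groups, 12 were called (5 higher and 7 lower, 6.0%), beside 0.359% of the 13929 tested genes that met the same condition.

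The genes fell into a pair of name series. Numbers below 970 ended at 865 and included all 52 names that the table spells in capitals after a human counterpart. Numbers from 970 to 1187 carried no such name. The series with high numbers held 138 of the 218 genes and 15 of the 16 calls, and the series with low numbers held 80 genes and 1 call. Of the 15, 4 reached the count limit in Fgf20aHOM only and had to differ. Among genes that reached it in both groups, 11 of 122 with high numbers (9.02%) and 1 of 78 with low numbers (1.28%) were called. The share over all genes under this limit was 0.359%. Among genes with at least 30 counts in both groups, all mutant libraries lay beyond all Cnt libraries in 54 of 122 with high numbers (44.3%), 39 lower and 15 higher, and in 15 of 78 with low numbers (19.2%), 13 higher and 2 lower. Of all genes that met this limit, the groups did not overlap in 18.8%, with 10% higher and 8.79% lower. By direction, the high series had 32% lower and 12.3% higher, and the low series 2.56% lower and 16.7% higher. The share of lower genes in the high series was thus above that of all genes, and its share of higher genes was near it. With total counts in place of TMM factors the high series had 35 lower and 19 higher genes without overlap, and the low series 0 and 13. The shares over all genes given above are those with TMM factors, and none is given with total counts. The fitted fold change reached 2 in either direction in 46 of these 122 genes (37.7%), in 10 of the 78 (12.8%) and in 10.3% of all genes under the same limit. The median log2 fold change was -0.22 in the high series, 0.20 in the low series and -0.063 in all genes. These are descriptions, and the difference between the series was not tested.

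**Figure D1:**
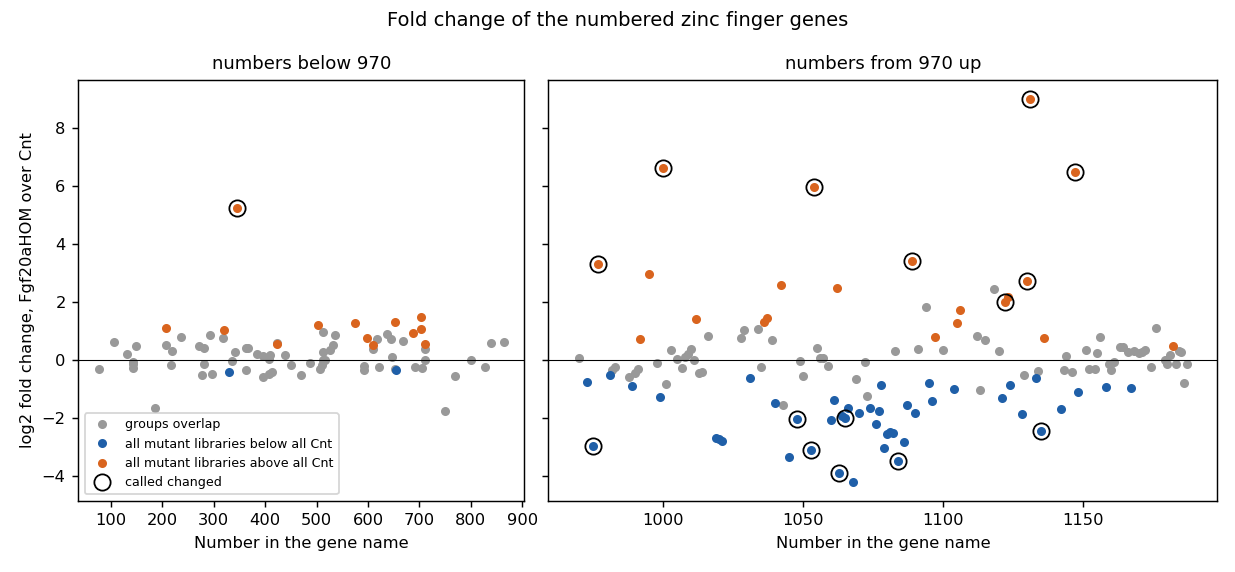
Each point is a numbered zinc finger gene, with the number in its name on the x axis and the fitted log2 fold change of Fgf20aHOM over Cnt on the y axis. Blue and orange points are genes in which all 3 mutant libraries lay below or above all 4 Cnt libraries, grey points overlap, and black rings mark the 16 genes called changed, of which 15 carry a number from 970 up. Of these 15, 4 reached the count limit in Fgf20aHOM only and had to differ.

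**Figure D2:**
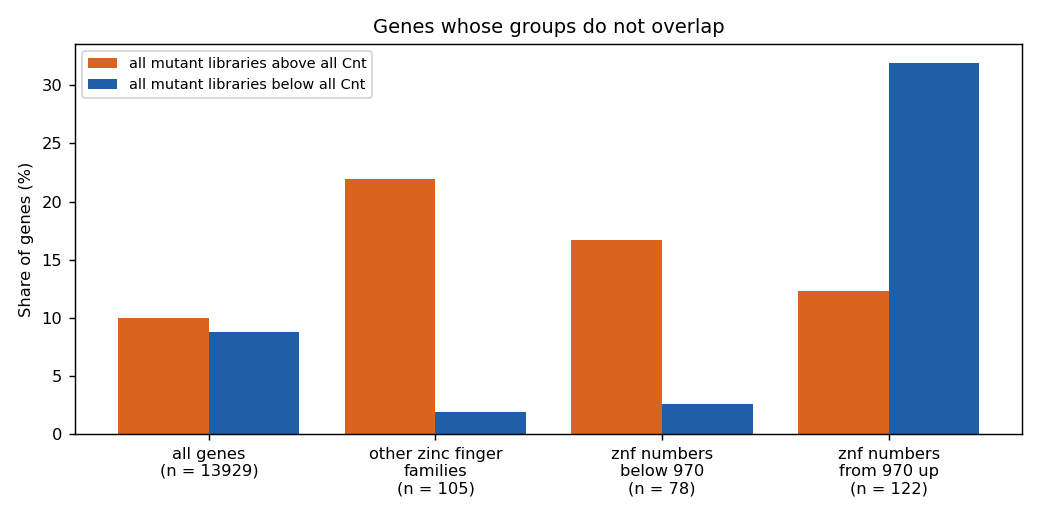
Bars give the share of genes, in percent, in which all mutant libraries lay above (orange) or below (blue) all Cnt libraries, among genes with at least 30 counts in every library of both groups. The blue bar of numbers from 970 up (39 of 122) stands above that of all genes (8.79%).

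The gene with the lowest p was znf346 (ENSDARG00000060695), the only called gene of the low series. In mammals its product binds double-stranded RNA rather than a DNA site. Its normalised counts were 439, 674, 370.3 and 329.7 in Cnt 1 to 4 and 21111, 16766 and 13929 in mutants F2, F3 and F4. The lowest mutant library was thus far above the highest Cnt library, a difference of 5.25 ± 0.32 (SE) on the log2 scale (edgeR adjusted p = 8.61e-05). It was called under each alternative that was run, including each omission of a library.

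Another 4 genes of the high series were close to undetected in the wild type and expressed in all mutant libraries. They reached the count limit through Fgf20aHOM only, so that a difference was built into their choice and their number is no result. znf1131 (ENSDARG00000104822) had 0, 2, 0 and 1 counts in Cnt 1 to 4 and 46, 592 and 526 in mutants F2, F3 and F4. The pooled counts of 3 and 1164, each scaled by the summed library size of the group, had a ratio of 579 (95% exact interval 198 to 2810, counting error only), and F2 was far below F3 and F4. For znf1000 (ENSDARG00000088378) the normalised counts were 5.03, 2.75, 13.0 and 3.89 in Cnt 1 to 4 and 427, 876 and 546 in mutants F2, F3 and F4. For znf1147 (ENSDARG00000100652) they were 8.05, 4.58, 3.71 and 7.78 in Cnt 1 to 4 and 454, 421 and 789.5 in mutants F2, F3 and F4. In both genes every mutant library was far above every Cnt library. znf1054 (ENSDARG00000103172) had 1.01, 3.66, 5.57 and 1.95 in Cnt 1 to 4 and 136, 242 and 214 in mutants F2, F3 and F4. The log2 fold changes of the last 3 were 6.61 ± 0.65 (SE), 6.50 ± 0.54 (SE) and 5.95 ± 0.80 (SE), with edgeR adjusted p of 0.00125, 0.0005 and 0.00695, and that of znf1131 was 9.0 ± 1.21 (SE) (edgeR adjusted p = 0.0069). Limma-voom called none of these 4, with adjusted p from 0.0187 to 0.175.

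The other 4 genes that were higher in Fgf20aHOM were expressed in both groups. znf977 (ENSDARG00000087070) had, in normalised counts, 239, 154, 153 and 213 in Cnt 1 to 4 and 1573, 2236 and 1837 in mutants F2, F3 and F4, a log2 fold change of 3.31 ± 0.30 (SE) with an edgeR adjusted p of 0.000806. The groups were far apart in each library. znf1089 (ENSDARG00000088847) had 94.5, 46.7, 59.4 and 72.9 in Cnt 1 to 4 and 482, 717 and 969 in mutants F2, F3 and F4 (log2 fold change 3.40 ± 0.42 (SE), edgeR adjusted p = 0.00507). znf1130 (ENSDARG00000105144) had 171, 93.4, 165 and 197 in Cnt 1 to 4 and 684, 1033 and 1394 in mutants F2, F3 and F4 (log2 fold change 2.73 ± 0.38 (SE), edgeR adjusted p = 0.00881). znf1122 (ENSDARG00000099444) had 286, 357, 361 and 354 in Cnt 1 to 4 and 1079, 1713 and 1280.1 in mutants F2, F3 and F4. This was the smallest change among the called genes that rose, 2.00 ± 0.28 (SE) on the log2 scale, with an edgeR adjusted p of 0.00852. No role is given for these genes in the tables used here.

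The 7 genes that were lower in Fgf20aHOM were all from the high series, and all were well expressed in the wild type. znf1063 (ENSDARG00000101245) fell most. It had 2163, 913, 1439 and 1688 in Cnt 1 to 4 and 97.7, 101 and 117 in mutants F2, F3 and F4. The mutant libraries lay close together, at most 117 each, and the level decreased by 3.88 on the log2 scale (SE 0.38), with an edgeR adjusted p of 0.00125. znf1053 (ENSDARG00000098270) had 1541, 1397, 1629.8 and 2219.5 in Cnt 1 to 4 and 245, 121 and 224 in mutants F2, F3 and F4, and znf1084 (ENSDARG00000076255) had 3082, 1766, 2214 and 3491 in Cnt 1 to 4 and 409, 139.5 and 160.3 in mutants F2, F3 and F4. They fell by 3.11 on the log2 scale (SE 0.35) and by 3.48 on the log2 scale (SE 0.47), with edgeR adjusted p of 0.00357 and 0.0069. Fgf20aHOM F2 was the highest mutant library in both. znf1065 (ENSDARG00000090366), the gene of the 7 with the highest counts, had 4685, 3679.9, 3233 and 4562 in Cnt 1 to 4 and 885, 978 and 1201 in mutants F2, F3 and F4. Its level decreased by 1.98 on the log2 scale (SE 0.24), with an edgeR adjusted p of 0.00514. The last 3 had normalised counts of 634 to 1032 in Cnt and 63.5 to 166 in Fgf20aHOM for znf975 (ENSDARG00000091243), of 1251 to 1608 in Cnt and 287 to 444 in Fgf20aHOM for znf1048 (ENSDARG00000091994) and of 739 to 1233 in Cnt and 155 to 220.1 in Fgf20aHOM for znf1135 (ENSDARG00000093424). Their log2 fold changes were -2.97 ± 0.43 (SE), -2.03 ± 0.29 (SE) and -2.44 ± 0.35 (SE), and their edgeR adjusted p of 0.00956, 0.00897 and 0.00897 lay close to the limit of 0.01.

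**Figure D3:**
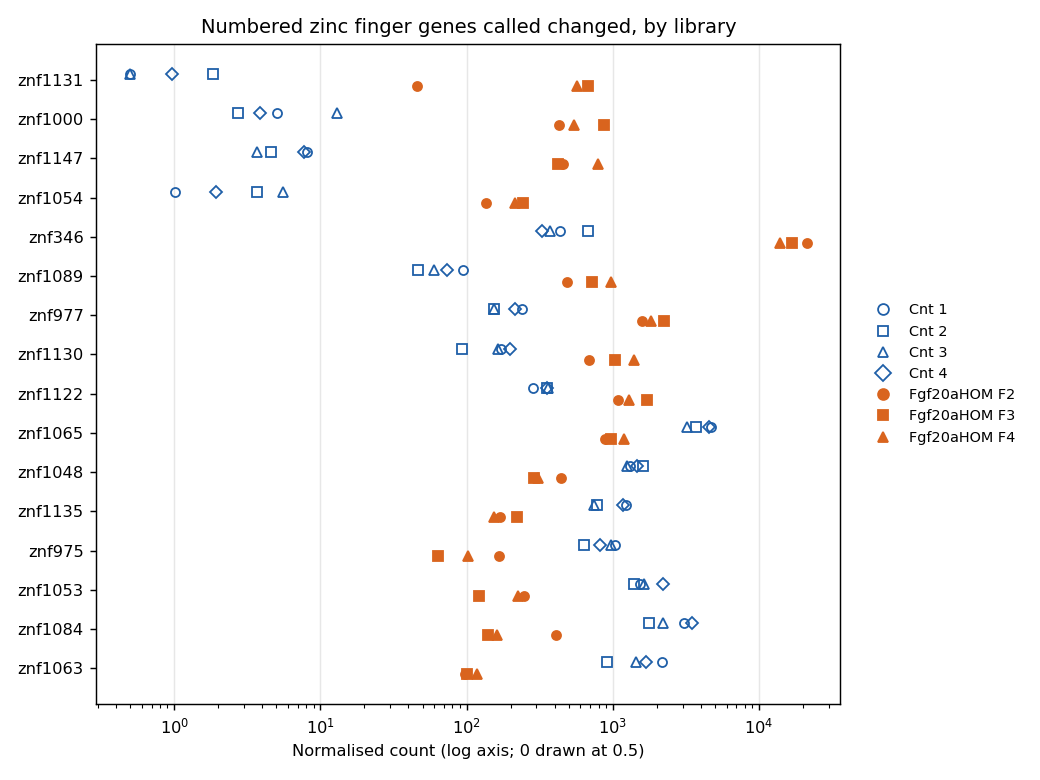
Normalised counts (x axis, log scale, 0 drawn at 0.5) of the 16 called genes in each library, with open blue symbols for Cnt 1 to 4 and filled orange symbols for Fgf20aHOM F2 to F4. In each gene the blue and orange symbols do not overlap, which the limits of a call favour, and znf1131 has an isolated mutant library at 45.8.

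The number of calls depended on the number of libraries and on the test. Without a single Cnt library 5 or 6 numbered zinc finger genes were called (6 without Cnt 1, 2 or 4, 5 without Cnt 3), and without Fgf20aHOM F2, F3 or F4 11, 2 and 4 were called. Calls over all genes also fell, from 86 to 36, 49, 28 and 50 without Cnt 1, 2, 3 and 4. Without F2, F3 and F4 they were 69, 15 and 23. DESeq2, the tool of the study, called 50 (22.9%), including all 16, beside 3.08% of the genes that it tested. Of these 50, 43 were from the high series, 30 lower and 13 higher, and 7 were from the low series, all higher. Over all genes DESeq2 called 258 higher and 376 lower. The 50 include genes of the high series that reached the count limit in 1 group only, so that a difference was built in. These were 5 genes in Cnt only, and znf1000, znf1042, znf1054, znf1131 and znf1147 in Fgf20aHOM only. With total counts in place of TMM factors the split of the calls was 9 higher and 3 lower, with limma-voom it was 5 and 13, and with a filter of at least 1 CPM in all libraries it was 4 and 12. Over all genes these splits were 38 higher and 27 lower, 22 and 77, and 21 and 77. The filter of 1 CPM removed znf1000, znf1054, znf1089, znf1131 and znf1147, all called higher at first, so that these genes were not tested under it. All 3 tools called 12 of the 16 genes.

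Of the 122 genes of the high series at the count limit in both groups, 39 (32%) had all mutant libraries below all Cnt libraries. Of all genes under the same limit 8.79% did, and 7 of the 39 were the called genes. The others were looked at after their values were seen. Among those that missed the limit with an edgeR adjusted p of 0.0117 to 0.0147 were znf1040 (ENSDARG00000098986), znf1060, znf1081 and znf1020. DESeq2 and limma-voom called all 4. For znf1040 the normalised counts were 5304, 5009, 5505 and 5376 in Cnt 1 to 4 and 2414, 1618 and 1722 in mutants F2, F3 and F4, a narrow range within each group, with a log2 fold change of -1.47 ± 0.22 (SE). For znf1060 they were 1650.5, 1622, 1729 and 1323 in Cnt 1 to 4 and 240.2, 414 and 473 in mutants F2, F3 and F4. For znf1081 they were 1496, 1417, 1645 and 2274 in Cnt 1 to 4 and 481, 234 and 213 in mutants F2, F3 and F4. In these 3 genes every mutant library was at least 2-fold below the lowest Cnt library. In znf1020, with 1642, 939.7, 1118 and 1580.5 in Cnt 1 to 4 and 96.7, 294 and 206 in mutants F2, F3 and F4, F2 was the lowest library. In the other direction, znf995 had 78.5, 74.2, 42.7 and 57.4 in Cnt 1 to 4 and 206, 440.1 and 837 in mutants F2, F3 and F4 (log2 fold change 2.97 ± 0.53 (SE), edgeR adjusted p = 0.0258), and znf1062 had 54.3, 52.2, 37.1 and 32.1 in Cnt 1 to 4 and 272, 189 and 277 in mutants F2, F3 and F4 (log2 fold change 2.48 ± 0.51 (SE), edgeR adjusted p = 0.0463). Neither was called by edgeR or limma-voom, and DESeq2 called both.

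Counts of lower genes differed along the numbers of the high series. The blocks given here were drawn after the values were seen, and they hold only genes that reached 30 counts in both groups, so that the count limit does not set the direction. The share over all genes was 8.79% lower and 10% higher. From 1070 to 1119, 12 of 25 genes (48%) lay lower in all mutant libraries and 4 (16%) higher, with a median log2 fold change of -0.84. From 1020 to 1069 the counts were 12 (42.9%) and 3 (10.7%) of 28, from 1120 to 1169 they were 9 (32.1%) and 3 (10.7%) of 28, and from 970 to 1019 they were 6 (21.4%) and 4 (14.3%) of 28. From 1170 to 1187, 0 of 13 were lower and 1 was higher. The shares of higher genes were thus close to that of all genes in most blocks. Successive numbers picked for this after their values were seen, znf1019, znf1020 and znf1021, had log2 fold changes of -2.68 ± 0.57 (SE), -2.73 ± 0.43 (SE) and -2.79 ± 0.54 (SE). All 3 reached the count limit in both groups, and DESeq2 and limma-voom called them while edgeR did not. Whether successive numbers mean neighbouring genes is not known for most of the series, since 41 of its 138 genes were matched to a RefSeq gene by name. Of these 41, 12 had another matched gene within 10 coding genes. The positions of znf1019, znf1020 and znf1021 are not given here. Similarity between the genes was not examined. Where copies are similar, RSEM divides reads between them, so that values of single copies carry more uncertainty.

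The sum over a series does not depend on how reads were divided within it. It does depend on any division with genes outside the series, which was not examined. In normalised counts, the sums over the 138 genes of the high series were 138682, 113901, 113321 and 135047 in Cnt 1 to 4 and 83009, 107783 and 107055 in Fgf20aHOM F2, F3 and F4. All mutant libraries were lower, F3 and F4 by a small margin, and this held without znf1035, the gene with the highest counts of the series (94253 to 120059 in Cnt, 68386 to 91572 in Fgf20aHOM). The 80 genes of the low series summed to 196616 to 232485 in Cnt and 240694 to 273718 in Fgf20aHOM, but without znf346 the groups overlapped (196286 to 231811 and 226764 to 252607). Genes of the high series together took 0.192 to 0.231% of all counts in Cnt and 0.149 to 0.187% in Fgf20aHOM.

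In part of the high series the mutant libraries did not form a single group. A library was counted as apart where it lay more than 3-fold from the other 2 mutant libraries, which themselves lay within 1.5-fold of each other, among genes with a mean normalised count above 50. Fgf20aHOM F2 was apart in 8 of 136 genes of the high series, and F3 and F4 in 0. In the low series each of the 3 was apart in 0 of 80. Over all genes F2, F3 and F4 were apart in 1.39, 1.09 and 1.48%. These limits were set after the values were seen and no test was made. In 3 of the 8 F2 was above F3 and F4, and all mutant libraries lay below all Cnt libraries. One of the 3, znf1068, reached the count limit in Cnt only, so that its difference from Cnt was built in. In znf1021 the normalised counts were 2171, 1712, 1413 and 2633 in Cnt 1 to 4 and 565, 167 and 127 in mutants F2, F3 and F4. In znf1019 they were 1493, 736, 912 and 1055 in Cnt 1 to 4 and 327, 73.7 and 89.9 in mutants F2, F3 and F4, and in znf1068 (ENSDARG00000078728) they were 1314, 159, 318 and 1464 in Cnt 1 to 4 and 122, 5.67 and 5.42 in mutants F2, F3 and F4. In all 3 genes F3 and F4 lay lowest and close to each other, which follows from the limits and the order just given. In the other 5 (znf1029, znf1094, znf1095, znf1115 and znf1131) F2 was below F3 and F4. Among them, znf1131 reached the count limit in Fgf20aHOM only. The gene znf1094 (ENSDARG00000102370) had 128, 343, 222 and 196 in Cnt 1 to 4 and 92.7, 1157 and 1150.1 in mutants F2, F3 and F4, so that F2 lay below the wild type and F3 and F4 above it. In znf1029 (ENSDARG00000103031), with 444, 226, 375 and 349 in Cnt 1 to 4 and 268, 945 and 955 in mutants F2, F3 and F4, F2 lay within the range of Cnt and F3 and F4 above it. The parents of single embryos are not given, and the part of genetic differences between embryos was not tested.

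**Figure D4:**
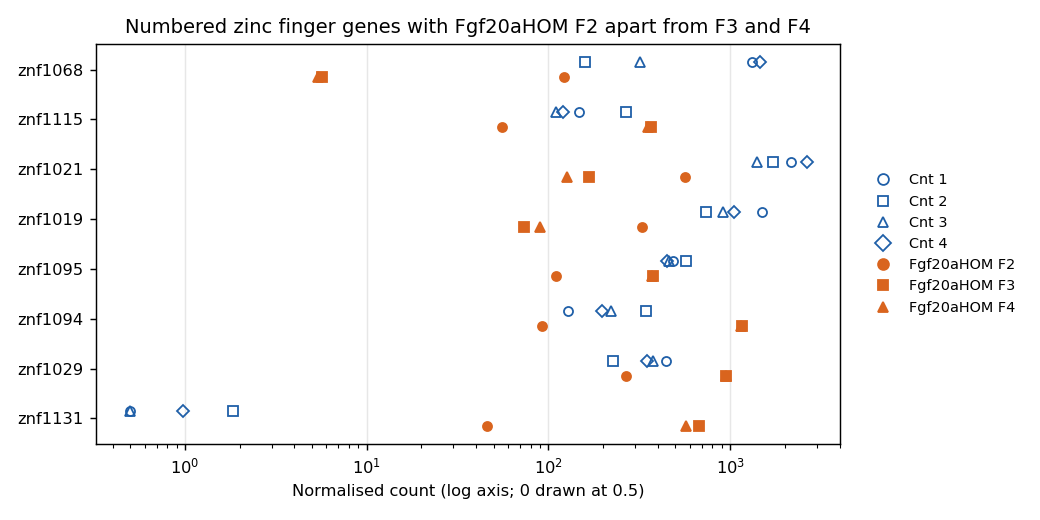
Normalised counts (x axis, log scale, 0 drawn at 0.5) in each library of the 8 genes in which Fgf20aHOM F2 (filled circle) lay apart from F3 (square) and F4 (triangle), with Cnt libraries as open blue symbols. F3 and F4 lie close together, as the choice of genes requires, and F2 is higher in 3 genes and lower in 5.

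Most genes with a described function belong to the low series, and none of those listed here was called by edgeR. ZNF703 and ZNF503 are names for the zebrafish homologues of Nlz1 and Nlz2, transcriptional repressors that act in the patterning of hindbrain segments. ZNF703 (ENSDARG00000035563) had, in normalised counts, 6018, 4302, 4396 and 5154 in Cnt 1 to 4 and 10929, 11918 and 8386 in mutants F2, F3 and F4. ZNF503 (ENSDARG00000018492) had 3111, 2102, 2482 and 4069 in Cnt 1 to 4 and 8109, 5383 and 6794 in mutants F2, F3 and F4. In both genes all mutant libraries were above all Cnt libraries, with log2 fold changes of 1.07 ± 0.22 (SE) and 1.2 ± 0.27 (SE). The edgeR adjusted p of 0.0445 and 0.0651 missed the limit, that of DESeq2 (0.00104 and 0.00506) passed it, and the values over all alternatives ran from 0.00104 to 0.195 and from 0.00506 to 0.241.

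Of the other genes with a described function given next, edgeR called none, and DESeq2 called 1, an ID of ZNF207. ZNF207, known as BuGZ, takes part in spindle assembly and has 2 IDs. One (ENSDARG00000015538) had 2098, 3230.2, 3399 and 3638 in Cnt 1 to 4 and 7420.4, 7285 and 5099.8 in mutants F2, F3 and F4, without overlap (log2 fold change 1.09 ± 0.25 (SE), edgeR adjusted p = 0.0707, DESeq2 adjusted p = 0.00586). The other (ENSDARG00000101277) had 8826, 11861, 6784 and 6406 in Cnt 1 to 4 and 13698, 12530.0 and 10373 in mutants F2, F3 and F4, with overlap (edgeR adjusted p = 0.349). ZNF598, a ubiquitin ligase that marks collided ribosomes, had 1951, 2071, 2145 and 1972 in Cnt 1 to 4 and 5338, 2780.3 and 2340.3 in mutants F2, F3 and F4, where F2 stood well above the rest (edgeR adjusted p = 0.233). ZNF687 had 1488, 1079.8, 1504 and 815 in Cnt 1 to 4 and 2607, 2079 and 2275 in mutants F2, F3 and F4, again without overlap (edgeR adjusted p = 0.146). For znf423, which is required for the cerebellum in mice, the ID ENSDARG00000095732 did not overlap (119 to 184 in Cnt and 198 to 268 in Fgf20aHOM) and the ID ENSDARG00000059707 did (1397 to 3809.9 in Cnt and 3115 to 4527 in Fgf20aHOM). The groups overlapped in both IDs of ZNF281 and of ZNF143, an activator of small nuclear RNA promoters, and in ZNF622 and znf593, factors of ribosome maturation. They overlapped also in ZNF148, ZNF292, ZNF384, ZNF536, ZNF711, znf219, znf451 and znf750. The table names no ID znf462, and the ID named ZNF521 was below the count limit.

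**Figure D5:**
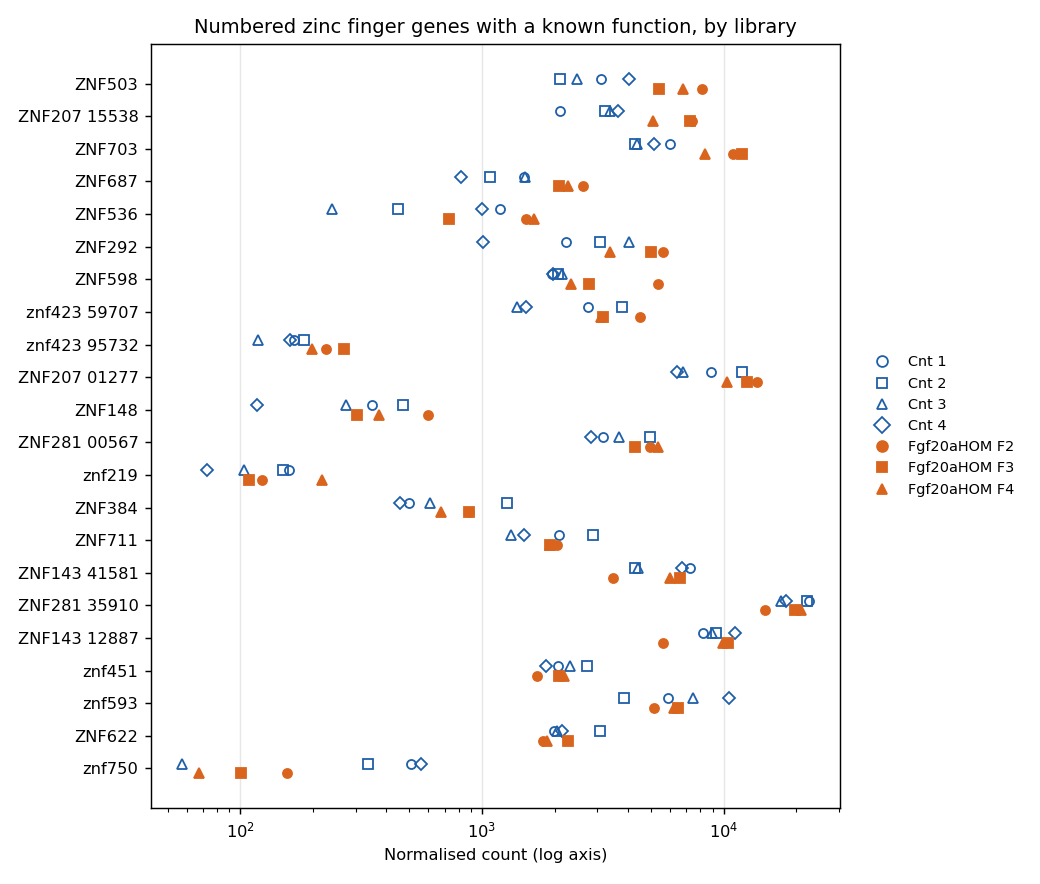
Normalised counts (x axis, log scale) in each library of the genes with a described function, ordered by fold change, with the last digits of the ID where a name has 2 IDs. ZNF703 and ZNF503 have all filled mutant symbols to the right of the open Cnt symbols, and most other genes overlap.

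Of the 6 genes with the highest mean normalised counts, ZNF281 (ENSDARG00000035910), znf1035, ZNF207 (ENSDARG00000101277), ZNF706, ZNF143 (ENSDARG00000012887) and znf638, none was called. ZNF281 had 22558, 22155, 17251 and 18132 in Cnt 1 to 4 and 14778, 19762 and 20819 in mutants F2, F3 and F4, and znf1035 had 24293, 19648, 18484 and 14988 in Cnt 1 to 4 and 14622, 16211 and 18895 in mutants F2, F3 and F4. Their groups overlapped and their log2 fold changes were -0.12 ± 0.21 (SE) and -0.22 ± 0.22 (SE). In znf638 (4607 to 8220.2 in Cnt and 7895 to 19524 in Fgf20aHOM) F2 was again well above the other libraries.

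The 5 genes with the widest range within the wild type, among those with a mean normalised count above 100, were znf185, znf750, znf1073, znf1136 and znf1176. The largest ratio was that of znf1176 (ENSDARG00000093672), with 16.1, 890.2, 95.6 and 1976 in Cnt 1 to 4 and 1293, 1686 and 1844 in mutants F2, F3 and F4. The genes znf1073, with 33.2, 1023, 417 and 568 in Cnt 1 to 4, and znf1136, with 80.5, 1247, 779 and 1158, were both far lower in Cnt 1 than in the others, and their mutant libraries lay at 235, 192 and 224 and at 1252, 1558 and 1310.4. A different order was seen in znf185, which encodes a LIM domain protein associated with actin rather than a DNA-binding factor, with 5844, 244, 1144 and 7324 in Cnt 1 to 4 and 2029, 1041 and 431 in mutants F2, F3 and F4. The summed normalised counts of the 6 epidermis markers were 901152, 55259, 191422 and 881582 in Cnt 1 to 4 and 408195, 255952 and 133102 in Fgf20aHOM F2, F3 and F4. The libraries with the most znf185 were thus those with the highest epidermis sum, Cnt 1 and Cnt 4, and Cnt 2 was the lowest in both. A single keratin gene, krt4, made up 82.6 to 94.7% of this sum. The markers krt17 and cldni were also highest in Cnt 1 and Cnt 4. Other markers of the list had other orders, with krt5 highest in F2, TP63 lowest in Cnt 4 and epcam highest in Cnt 4 and F2. The gene znf750 is a regulator of epidermal differentiation in humans. It had 509.9, 336, 57.5 and 561 in Cnt 1 to 4 and 155, 101 and 67.1 in mutants F2, F3 and F4. Cnt 1 and Cnt 4 were again the highest, but the order below them was not that of the epidermis sum. Cnt 2, the lowest in that sum, had more znf750 than any mutant library. The lowest znf750 value, 57.5, was in another Cnt library. The part of epidermis in these values was not tested, and none of the 5 genes was called.

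The 7 genes that reached the count limit in Cnt only were znf1045, znf1068, znf1076, znf1079, znf1080, znf1082 and znf1146, and 6 of them had all mutant libraries below all Cnt libraries. That is what the limit selects, and edgeR called 0 of the 7 (6 had an unadjusted p under 0.05), limma-voom 0 and DESeq2 5. The 11 that reached it in Fgf20aHOM only held, beside the 4 called genes, znf512, znf1042, znf1072, znf1123, znf1164, znf1176 and ZNF513 (ENSDARG00000101203). Just inside the limit were znf1172, znf1146 and znf1164, in which the lowest count of the group with the higher minimum was 34, 36 and 39. Just outside were znf1165, znf1175 and znf1108, with 22, 21 and 19.

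Zinc finger genes of other named families, such as the zic, egr, klf, sall and zbtb genes, served for comparison. Of 138 tested, 1 was called (0.725%, beside 0.439% of all genes tested). This was CTCF (ENSDARG00000056621), a factor that organises chromatin loops, which had 6424, 11586, 10399 and 7475 in Cnt 1 to 4 and 34175, 28375 and 29600 in Fgf20aHOM F2, F3 and F4 (log2 fold change 1.78 ± 0.24 (SE), edgeR adjusted p = 0.0072). Among the 105 with at least 30 counts in both groups the groups did not overlap in 25 (23.8%), 23 higher and 2 lower. Of all genes under this limit the groups did not overlap in 18.8%, with 10% higher and 8.79% lower. The direction in the 25 was like that of the low series and unlike that of the high series. The hindbrain and neural markers also had a median log2 fold change above 0 (0.43), and the part of tissue composition in these values was not tested.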

How the data were processed

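Bulk RNA-seq of single dissected hindbrains (4 Cnt and 3 Fgf20aHOM) was used. RNA had been amplified with the Ovation RNA-Seq System V2, and Nextera XT libraries were sequenced as paired-end reads of 75 bases on a HiSeq 2000. The authors aligned reads with STAR 2.5.1b through RSEM 1.2.31 to GRCz10 with Ensembl 89, and deposited expected counts per gene that they had rounded to whole numbers. RSEM divides reads that match several genes, which affects similar zinc finger copies, and the use of strand is not given in the sources used here, so reads of overlapping or antisense genes cannot be told apart.

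Gene names came from a table of ID and symbol, which paired 26350 of 32189 IDs with a symbol. It often gives a name in human style without the letter that separates duplicated genes, so 18 of the 218 genes share 9 names and are told apart by ID. The genes and lists were chosen with earlier results of these data known. Counts were tested with edgeR 4.0.16 (R 4.3.3), with TMM factors, filterByExpr, a robust quasi-likelihood fit on genotype and Benjamini-Hochberg adjustment over 19589 genes, and all 218 genes passed the filter. The procedure was tested on simulated data. The limits of a call (adjusted p 0.01, 2-fold, normalised count above 30) follow the methods of the study, which used DESeq2. The main test was edgeR, and DESeq2 1.42.0 and limma 3.58.1 (voom with quality weights) were alternatives, beside RLE factors, total counts, other filters, IDs of 1 name summed, an adjusted p of 0.05, and each library left out. Each library is 1 embryo, and p-values come from setting the difference between groups against the spread between these embryos. They do not cover a spread between lines. Intervals cover counting error only.

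Named genes were all called genes and the 6 with the lowest p among genes that reached the count limit in both groups. They were also the 6 with the highest mean, genes split at 3 counts or fewer in 1 group and the 3 on either side of the count limit. Added to these were a list of genes with a textbook function and the 5 with the widest range in Cnt. Others were named after their values were seen. Gene positions were not printed, since the RefSeq table (GRCz12tu) differs from the build of the files. Sequences are not shown here.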

Additional observations from a re-analysis of the deposited data

Results flagged for a closer look

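In 48 named genes the 4 Cnt libraries were examined for a library whose distance to the next, as a share of the range, exceeded Dixon's 95% critical value. This held in 3, where chance gives about 2.4. Cnt 1 lay apart in znf1122 with a normalised count of 285.64 (gap 0.907 of the range), Cnt 4 in znf1164 with 110.88 (0.877) and Cnt 2 in ZNF622 with 3083.7 (0.872). Of these only znf1122 was called, and its mutant libraries lay above all 4 Cnt libraries.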

How the results depend on the processing

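No called gene changed direction under any alternative. Of 617 comparisons over 48 named genes, 514 kept their direction and side of the limit, 83 lost the call, 3 gained it and 17 changed sign. The number of zinc finger genes called was 16 at first, 50 with DESeq2 and 28 at an adjusted p of 0.05, and 2 to 11 with a library left out (2 without Fgf20aHOM F3). Over all genes it was 86, 634 with DESeq2, 291 at an adjusted p of 0.05, and 15 to 69 with a library left out. Of the 16, 12 were also among the 18 called by limma-voom and the 12 called with total counts, and 11 among the 16 called with at least 1 CPM in all libraries (4 higher and 12 lower). The rest of the 16 were removed by that filter and not tested. With no filter 19 were called, with RLE factors and with summed IDs 16. A count limit of 10 or 100 in place of 30 gave 228 or 200 genes. The groups did not overlap in 69 of the 200 genes (34.5%, 28 higher and 41 lower) with TMM factors, and RLE factors gave the same numbers. With total counts it was 67 (32 higher and 35 lower). These alternatives were added after seeing the data. Of all genes under the same limit, 18.8% did not overlap with TMM factors. That share is not given for RLE factors or total counts.

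Signs changed only in genes that were not called. With limma-voom the log2 fold changes of ZNF143 (ENSDARG00000012887), ZNF143 (ENSDARG00000041581) and znf1073 became 0.060, 0.041 and 0.095, and with total counts that of ZNF143 (ENSDARG00000041581) became 0.003. With summed IDs, the value of both ZNF281 IDs together was -0.022. Alone, ENSDARG00000000567 had 0.413 and ENSDARG00000035910 had -0.118. The sum was counted as a change of sign of ENSDARG00000000567, whose own value did not change. With a library left out the ranges were -0.212 to 0.020 for ZNF281 (ENSDARG00000035910), -0.253 to 0.116 and -0.232 to 0.154 for the 2 ZNF143 IDs, -1.137 to 0.187 for znf1146, -0.421 to 0.095 for znf593, -0.141 to 0.261 for ZNF711 and -0.069 to 0.508 for znf219. The cause of the changes in single IDs was not tested.

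No paired analysis was possible because the numbers of the mutant columns (F2 to F4) do not match those of the sample titles and no label pairs embryos across groups. With 3 mutant embryos from a single line, the spread between embryos limits what can be called.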

Other observations

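The 26 numbered zinc finger IDs below the count limit were 19 with numbers from 970 up and 7 below. Of these, 4 had at most 3 counts in every library, among them znf831 and znf1153 with 0 throughout. The gene znf1177 had 0 counts in all 4 Cnt libraries and in Fgf20aHOM F2, and 52 and 111 in F3 and F4. The gene znf1108 had 5, 4, 4 and 7 counts in Cnt 1 to 4 and 33, 19 and 54 in Fgf20aHOM F2, F3 and F4, and znf1044 had 30, 36, 38 and 18 against 6, 14 and 6. ZNF326 had 210 counts in Cnt 2 and at most 32 in any other library.

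Matching by name to RefSeq genes succeeded for 41 of the 138 genes with high numbers (29.7%) and 56 of the 80 with low numbers (70%). Since fewer than 80% were matched, position was not set beside the values. Of the matched genes with high numbers, 12 had another within 10 coding genes, among them the 8 genes znf1154, znf1156, znf1159, znf1160, znf1167, znf1174, znf1179 and znf1184, and the pairs znf1007 with znf1010 and znf1008 with znf1014.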
